A study of Homo sapiens with 6 samples.

Results

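The 40 genes described here are a list of mitosis and G2/M genes, chosen by name, whose products bring a cell into mitosis and carry it through chromosome segregation and cytokinesis. All 40 were found in the tables, which list 21314 entries, and all 40 were among the 13645 genes tested. RNA sequencing was done on ARPE-19, a human retinal pigment epithelial cell line, to ask how added PDZK1, a PDZ-domain scaffold protein, changes these cells in high glucose. The control group carried a control lentivirus and the PDZK1 group carried a lentivirus overexpressing PDZK1, with 3 libraries in each group. Both groups were transduced at a multiplicity of infection of 10 for 48 h, put under 4 µg/ml puromycin for stable selection and then kept in 37.5 mM glucose for 48 h, so that every library came from transduced, drug-selected cells in high glucose. The sources do not say that a single clone was picked, and nothing in the labels says that the libraries came from separate cultures, so p-values measure only the spread between these libraries. Libraries are called control 1 to 3 and PDZK1 1 to 3.

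Cyclin A2 and the B-type cyclins activate CDK1, which drives entry into mitosis, while Polo-like and Aurora kinases build the spindle and free the sister chromatids. Kinetochore proteins tie chromosomes to microtubules, the spindle checkpoint holds back the anaphase-promoting complex (APC/C) until all are attached, and the central spindle then guides cytokinesis. Many of these genes are transcribed late in the cell cycle, controlled by DREAM, which represses them, and by the B-MYB/FOXM1 complexes. The MuvB core of these complexes binds a short promoter element, the cell cycle genes homology region (CHR), often below CCAAT boxes bound by NF-Y. Transcripts of such genes are therefore carried mainly by cycling cells, and in bulk RNA fewer cycling cells and less RNA per cycling cell cannot be told apart.

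Promoter sequence was not used to choose the genes, and it shows what many of them have in common. RefSeq promoter windows (GRCh38.p14, 250 bases before to 50 after each annotated start) matched 34 of the 40 genes by symbol, with 37 windows because AURKB, CDK1 and ECT2 each have 2. BIRC5, UBE2C, TPX2, TTK, AURKA and FOXM1 had no entry. Both strands were searched for the CHR letters TTTGAA or TTCGAA and for CCAAT. The CHR letters were found in 29 of the 37 windows (78.4%), against 16.4% of all 35114 windows and 12.2% of the windows of tested genes. CCAAT was found in 29 windows (78.4%), against 34.6% of all windows, and both were found together in 24 windows (64.9%), against 6.38%. A CHR match whose first base lay between -50 and 30 from the start was present in 54.1% of the members' windows and in 4.29% of all windows. In 2 windows, those of CDCA8 and MKI67, a CHR match and a CCAAT match overlapped. By contrast, 47 windows of 37 DNA replication genes held the CHR letters in 4.26% and an E2F-type element (TTTCCCGC, TTTGGCGC or TTTCGCGC, either strand) in 42.6%. The members' windows held that E2F-type element in 10.8%, against 2.74% of all windows, and the replication genes' windows held CCAAT in 59.6%. These are matches of letters in a window, not binding sites.

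Promoters of 5 members are given here, on the strand of the gene and 5′ to 3′, with matches to the CHR letters and CCAAT on either strand in capitals. PLK1, the Polo-like kinase (chr16:23678639-23678938, plus strand), has a single CCAAT upstream of a single CHR match at -29, counted to its first base with 0 at the first base after the 250 upstream ones. CCNB2 (chr15:59104896-59105195, plus strand), the member with the widest range over the libraries, has 4 CCAAT matches before a CHR match at -29. CCNF (chr16:2429197-2429496, plus strand), the member whose groups did not overlap, has its 2 CHR matches at -233 and -85. MKI67 (chr10:128126374-128126673, minus strand), the source of the Ki-67 proliferation antigen, has CHR matches at -47 and -29. CCNB1 (chr5:69166900-69167199, plus strand) has 2 CCAAT matches and neither TTTGAA nor TTCGAA in this window. Other spellings of the CHR were not searched.
PLK1: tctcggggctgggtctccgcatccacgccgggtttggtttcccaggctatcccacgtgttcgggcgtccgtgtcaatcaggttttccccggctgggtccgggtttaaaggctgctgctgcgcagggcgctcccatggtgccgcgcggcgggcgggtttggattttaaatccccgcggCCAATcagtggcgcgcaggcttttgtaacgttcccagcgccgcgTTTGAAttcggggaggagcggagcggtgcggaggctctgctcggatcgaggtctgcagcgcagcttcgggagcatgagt
CCNB2: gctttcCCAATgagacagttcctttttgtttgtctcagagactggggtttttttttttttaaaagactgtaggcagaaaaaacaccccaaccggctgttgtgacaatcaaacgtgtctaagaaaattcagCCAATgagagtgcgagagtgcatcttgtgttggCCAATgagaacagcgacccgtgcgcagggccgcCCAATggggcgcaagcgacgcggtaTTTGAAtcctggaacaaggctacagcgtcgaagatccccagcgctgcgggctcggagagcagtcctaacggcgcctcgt
CCNF: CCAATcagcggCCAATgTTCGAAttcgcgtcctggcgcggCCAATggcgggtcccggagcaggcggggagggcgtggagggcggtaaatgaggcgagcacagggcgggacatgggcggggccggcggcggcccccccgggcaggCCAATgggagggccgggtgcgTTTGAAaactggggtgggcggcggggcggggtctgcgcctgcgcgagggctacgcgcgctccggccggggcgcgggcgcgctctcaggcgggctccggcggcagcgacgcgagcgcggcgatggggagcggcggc
MKI67: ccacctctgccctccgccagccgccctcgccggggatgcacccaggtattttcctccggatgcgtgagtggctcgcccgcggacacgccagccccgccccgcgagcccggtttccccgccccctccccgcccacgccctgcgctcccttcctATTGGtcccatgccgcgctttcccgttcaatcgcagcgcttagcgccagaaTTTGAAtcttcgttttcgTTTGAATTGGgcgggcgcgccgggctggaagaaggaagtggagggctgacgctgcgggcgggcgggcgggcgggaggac
CCNB1: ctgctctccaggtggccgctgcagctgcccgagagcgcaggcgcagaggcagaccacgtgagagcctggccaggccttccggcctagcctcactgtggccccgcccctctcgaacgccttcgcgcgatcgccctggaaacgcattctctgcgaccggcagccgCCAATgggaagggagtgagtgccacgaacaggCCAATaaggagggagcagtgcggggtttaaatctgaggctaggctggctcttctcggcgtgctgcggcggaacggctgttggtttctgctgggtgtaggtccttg

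**Figure D1:**
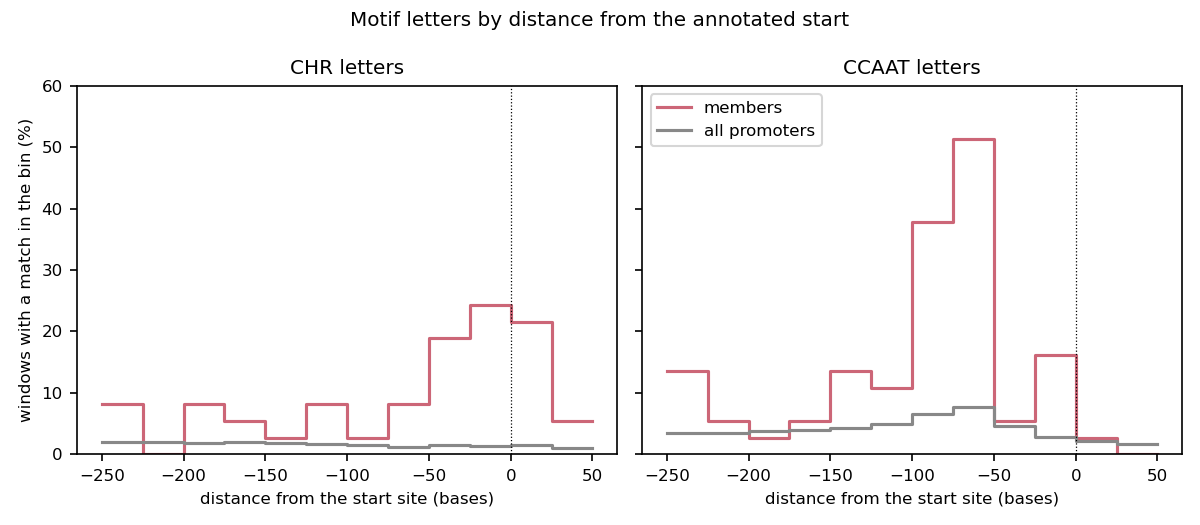
Percent of promoter windows with a match to the CHR letters (left) or to CCAAT (right) in each bin of 25 bases, against distance from the annotated start in bases, for the 37 windows of the mitosis and G2/M genes (red) and for all 35114 windows (grey). CHR matches of the members were most frequent from -50 to 25, with 18.9%, 24.3% and 21.6% of windows in the 3 bins there, and CCAAT matches from -100 to -50, with 37.8% and 51.4%.

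Total counts ran from 27970618 in control 3 to 32804567 in PDZK1 2, and counts of the members from 261 (CENPA) to 7504, so counting error on a member was at most 0.089 on the log2 scale. PDZK1 itself had 19, 18 and 23 counts in control 1 to 3 and 3020, 2541 and 2828 in PDZK1 1 to 3, a log2 fold change of 7.03 ± 0.13 (SE, edgeR adjusted p = 8.16e-09), and every library labelled PDZK1 was high. Of 16 markers of retinal pigment epithelium, 12 were expressed enough to be tested and 0 were called by edgeR. Among them, KRT8 had 29619 to 39444 counts and MITF 1123 to 1385 counts per library. RPE65 and TTR had 0 counts in all 6, which allows at most 3 counts, or 0.0915 to 0.109 CPM (counts scaled to library size), in a library. Of 13 markers of other cell types, 4 were expressed enough to be tested and 0 were called by edgeR: CD68 (3948 to 4517 counts per library), PDGFRB (1988 to 2685), ACTA2 (1337 to 1736) and VWF (0 to 22). The others had at most 10 counts in a library, with PTPRC (leukocytes) and CDH5 (endothelium) at 0 in all 6. BEST1, a chloride channel among the 16 retinal pigment epithelium markers, had 11459 counts in PDZK1 1 and 124 to 181 in the other libraries. It was not called by edgeR.

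All members were expressed, at 6-library mean levels from 3.30 FPKM (KIF14) to 49.9 FPKM (CCNB1), where FPKM scales fragments to transcript length and depth. CCNB1, the main B-type cyclin, stood highest, with 44.7, 47.7 and 61.1 FPKM in control 1 to 3 and 43.0, 58.4 and 44.8 FPKM in PDZK1 1 to 3. UBE2C, the ubiquitin-conjugating enzyme that works with the APC/C, followed at 32.6, 29.9 and 42.2 FPKM and 32.4, 37.1 and 30.03 FPKM. Every library of CCNB1 lay above every library of UBE2C. The ranges over libraries of UBE2C and the next genes in order overlapped, with means of 32.7 FPKM for ANLN, 31.8 for TPX2, 31.4 for TOP2A and 30.4 for CKAP2, although UBE2C was above TOP2A and CKAP2 within every library. At the low end the ranges of neighbours in order overlapped, KIF14 with CCNF (3.32 FPKM), CCNF with CENPE (4.26) and CENPE with BUB1B (4.48), while every library of BUB1B lay above every library of CCNF and KIF14 was below CENPE within each library.

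**Figure D2:**
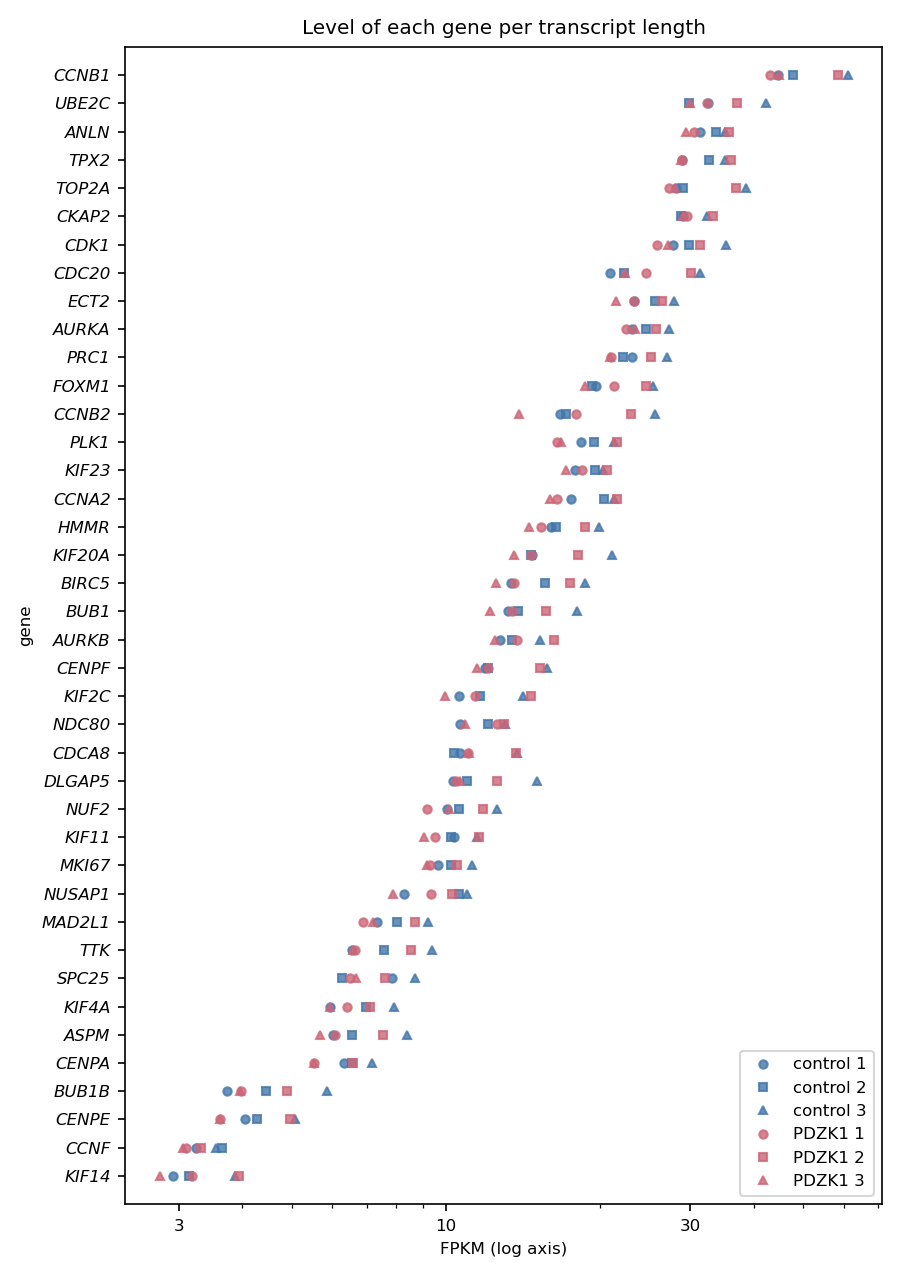
FPKM (log axis) of the 40 mitosis and G2/M genes, ordered by mean level, with a point for each library (blue, control; red, PDZK1; circles, squares and triangles, replicates 1, 2 and 3). Levels ran from a mean of 3.30 (KIF14) to 49.9 (CCNB1), and the red and blue points of most genes interleave.

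None of the 40 genes differed between PDZK1 and control cells past the threshold of an edgeR adjusted p under 0.05 (0 of 40, against 3.83% of all tested genes, 522 of 13645). None had an unadjusted p under 0.05 either, against 17.5% of all tested genes. DESeq2 and limma-voom also called 0 of 40, and neither gave an unadjusted p under 0.05 for any of them. The estimates were small, from -0.24 (NUSAP1) to 0.041 (CDCA8) on the log2 scale, with 36 below 0 and 4 above. Their median was -0.11, against -0.00025 over all tested genes, of which 6837 were below 0 and 6808 above. The groups failed to overlap in 1 member, CCNF, below control, against 12.3% of tested genes lying wholly below, and in 0 members above control, against 11.6%. The 95% interval lay within a 1.5-fold change in both directions for 38 of the 40 genes, so a larger change was outside the interval for these. The same held for 10698 of the 13645 tested genes. The 2 exceptions were CCNB2, with an interval from -0.81 to 0.59, and KIF20A, whose interval reached -0.64.

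**Figure D3:**
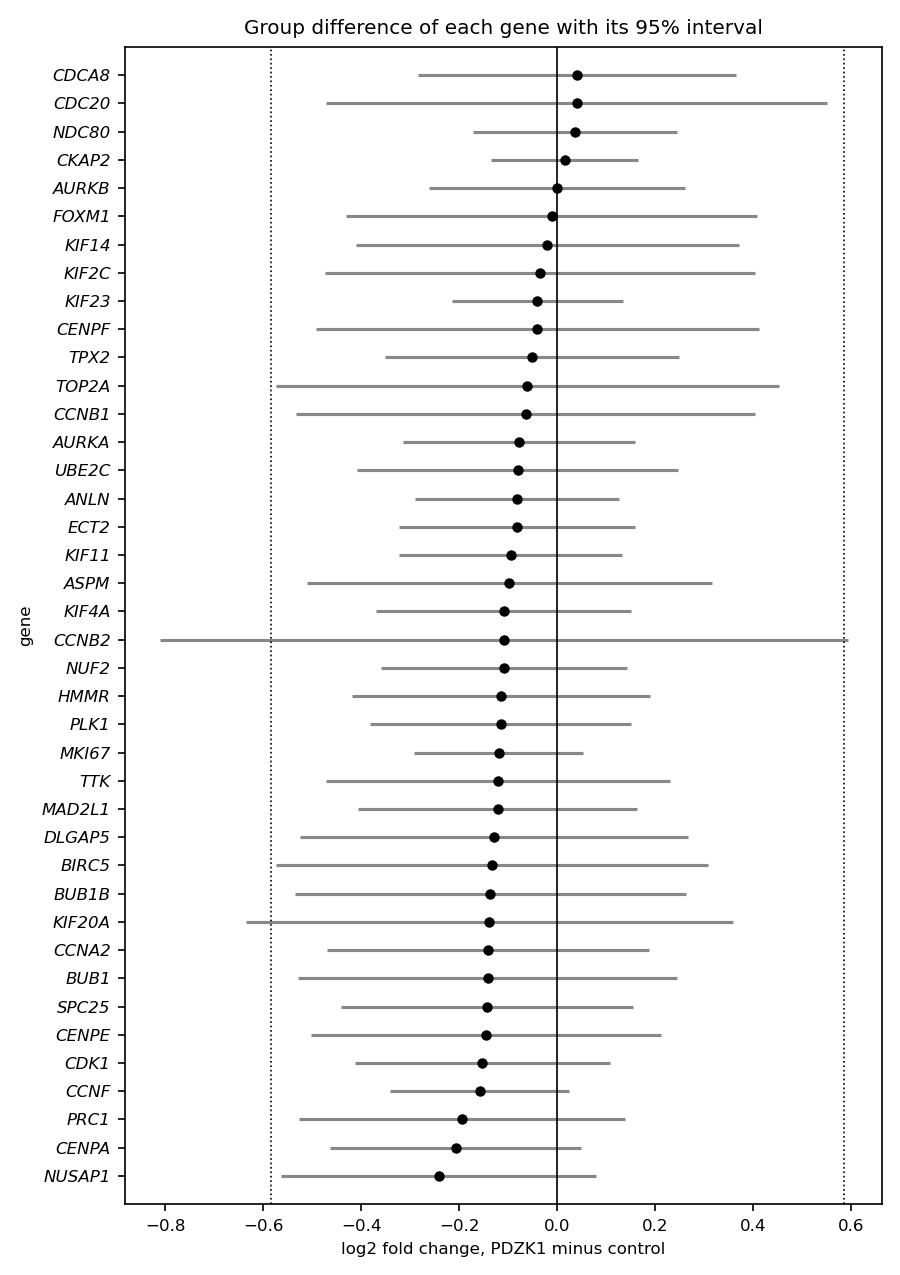
Log2 fold change (PDZK1 minus control) of each of the 40 genes from the edgeR fit over all tested genes, with its 95% interval, n = 3 libraries per group. Dotted lines mark a 1.5-fold change in either direction. Each interval holds 0, and only those of CCNB2 and KIF20A cross a dotted line.

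Among the mitotic cyclins and their kinase, all 5 estimates were below 0. CCNF, cyclin F, which forms an SCF ubiquitin ligase and binds no CDK, had 15.0, 16.6 and 16.3 CPM in control 1 to 3 and 14.1, 14.9 and 13.9 CPM in PDZK1 1 to 3. The PDZK1 libraries all lay below the control libraries, although the highest of them nearly met the lowest control, and the difference of -0.16 ± 0.082 (log2, SE) had the smallest adjusted p of the members in edgeR, 0.363. In FPKM the groups overlapped, with 3.25, 3.65 and 3.54 in control and 3.11, 3.31 and 3.06 in PDZK1 libraries. CDK1, the kinase that the A- and B-type cyclins switch on, had 57.1, 61.5 and 74.1 CPM in control and 52.9, 64.2 and 56.1 CPM in PDZK1 libraries, a difference of -0.15 ± 0.11. PDZK1 2 lay within the control range and the other PDZK1 libraries lay just below it. CCNA2, cyclin A2, had 52.4, 61.2 and 63.9 CPM and 49.1, 64.4 and 47.4 CPM, with its highest value in PDZK1 2. CCNB1 had 96.0, 103 and 129.7 CPM and 92.9, 126 and 95.1 CPM, and the groups overlapped over nearly their whole range. CCNB2, the second B-type cyclin, varied most of all members, with 27.7, 28.1 and 44.8 CPM in control and 29.9, 38.3 and 24.9 CPM in PDZK1 libraries. Its highest library (control 3) and its lowest (PDZK1 3) differed by 1.80-fold, while its group difference was -0.11 ± 0.27.

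The 6 kinases of mitosis all had estimates below 0. PLK1 had 42.8, 45.7 and 50.1 CPM in control and 38.4, 50.5 and 39.0 CPM in PDZK1 libraries, a difference of -0.12 ± 0.11 (edgeR adjusted p = 0.679). PDZK1 1 and 3 lay below all control libraries and PDZK1 2 above them. AURKA, which matures the spindle poles, had 48.7, 55.9 and 62.2 CPM and 50.7, 58.6 and 48.5 CPM. AURKB, the catalytic subunit of the chromosomal passenger complex, had 15.8, 17.4 and 19.6 CPM and 16.7, 20.4 and 15.7 CPM, and its difference was -0.00013, with a sign that turned under other scalings. Of the checkpoint kinases, TTK had 22.2, 25.9 and 31.3 CPM and 22.1, 28.4 and 22.4 CPM, and BUB1 had 54.1, 56.0 and 74.2 CPM and 54.1, 63.9 and 48.9 CPM. Both were highest in control 3 and next highest in PDZK1 2, and their groups overlapped. BUB1B, which encodes BubR1, an inhibitor of the APC/C, had 14.9, 17.9 and 23.3 CPM and 15.8, 19.5 and 15.6 CPM, with control 3 highest and control 1 lowest of all 6 libraries.

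Checkpoint and APC/C genes differed as little. MAD2L1, the MAD2 checkpoint protein, had 41.1, 45.3 and 51.9 CPM in control and 37.3, 49.0 and 40.6 CPM in PDZK1 libraries, a difference of -0.12 ± 0.12. CDC20, the APC/C activator that MAD2 restrains, had 38.4, 40.7 and 57.5 CPM and 44.4, 55.3 and 40.6 CPM, and its estimate was above 0, at 0.040 ± 0.20. The control libraries alone spanned the full range of CDC20. UBE2C had 28.4, 25.9 and 36.3 CPM and 27.7, 32.1 and 25.9 CPM, a difference of -0.081 ± 0.14.

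At the centromere, CENPA, the histone H3 variant that marks it, had 9.50, 9.94 and 10.9 CPM in control and 8.18, 9.83 and 8.23 CPM in PDZK1 libraries. PDZK1 1 and 3 lay below the control libraries and PDZK1 2 within them, and the difference was -0.21 ± 0.11 (edgeR adjusted p = 0.396). NDC80, which grips the microtubule, had 23.7, 26.6 and 29.5 CPM and 28.1, 29.1 and 24.6 CPM, and its partner NUF2 in the NDC80 complex had 21.4, 22.5 and 27.0 CPM and 19.5, 24.7 and 21.5 CPM. Estimates were 0.036 ± 0.093 for NDC80, -0.11 ± 0.11 for NUF2 and -0.14 ± 0.13 for SPC25, another subunit of that complex. The kinetochore motor CENPE and the large coiled-coil protein CENPF had estimates of -0.15 ± 0.15 and -0.041 ± 0.17. For the passenger complex, BIRC5 (survivin) gave -0.13 ± 0.18 and CDCA8 (borealin) gave 0.041 ± 0.14.

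The 6 mitotic kinesins had estimates from -0.14 to -0.021. KIF20A, a kinesin of the central spindle, had 49.2, 49.5 and 71.4 CPM in control and 48.6, 60.5 and 45.2 CPM in PDZK1 libraries, a difference of -0.14 ± 0.20. Control 3 stood above every other library for this gene. KIF11, which pushes the spindle poles apart, had 56.4, 56.0 and 63.2 CPM and 51.8, 63.4 and 49.1 CPM, with control 3 and PDZK1 2 nearly level at the top. The others were KIF23 (-0.041 ± 0.077), a subunit of centralspindlin, KIF2C (-0.036 ± 0.18), a microtubule depolymerase, KIF4A (-0.11 ± 0.11), a chromosome-bound motor, and KIF14 (-0.021 ± 0.16), which acts in cytokinesis.

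NUSAP1, a microtubule-bundling protein of the spindle, had the lowest edgeR estimate of the 40 genes. It had 20.9, 26.0 and 30.4 CPM in control and 22.7, 23.1 and 19.4 CPM in PDZK1 libraries, and the groups overlapped since control 1 was among the lower libraries. The difference was -0.24 ± 0.14, with an edgeR adjusted p of 0.426. In a fit on log2(FPKM + 1) the NUSAP1 estimate was -0.10, and the lowest was that of CENPA, at -0.16. CKAP2, another microtubule-associated protein, was the steadiest member, with 111, 112 and 126 CPM and 113, 127 and 112 CPM, a 1.14-fold range over the 6 libraries. Estimates of the other spindle genes were -0.051 ± 0.12 for TPX2, which activates Aurora A, -0.098 ± 0.16 for ASPM, -0.13 ± 0.16 for DLGAP5 and -0.12 ± 0.13 for HMMR. In cytokinesis, PRC1, which bundles the antiparallel microtubules of the midzone, had 83.2, 82.6 and 97.9 CPM in control and 70.1, 91.6 and 68.7 CPM in PDZK1 libraries, a difference of -0.19 ± 0.13 (edgeR adjusted p = 0.536). ANLN (anillin) and ECT2, the activator of RhoA at the cleavage furrow, gave -0.082 ± 0.087 and -0.082 ± 0.099.

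MKI67 had 133, 142 and 155 CPM in control and 126, 144 and 125 CPM in PDZK1 libraries. The lower PDZK1 libraries lay below control and PDZK1 2 within it, and the difference was -0.12 ± 0.074 (edgeR adjusted p = 0.47). TOP2A, the topoisomerase that untangles sister chromatids, had 174, 181 and 239.8 CPM and 168, 229 and 172 CPM, and control 3 and PDZK1 2 were well above the other 4 libraries. FOXM1, a transcription factor of the G2/M program, had 72.2, 72.5 and 97.3 CPM and 78.8, 91.9 and 69.2 CPM, a difference of -0.011 ± 0.17, with a sign that turned under library totals and in the FPKM fits. For FOXM1 and TOP2A, as for most of the members, the difference between libraries of the same group was larger than that between the groups.

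Across the list, the libraries of a group differed from each other in the same way for almost every gene. Control 3 was the highest control library for 39 of the 40 genes, while 38% of all tested genes had their highest control value there. PDZK1 2 was the highest PDZK1 library for 40 of 40, against 36.5% of all tested genes. Each library's median deviation from the 6-library mean, over the 40 genes, was -0.12, -0.0077 and 0.26 (log2 CPM) in control 1 to 3 and -0.12, 0.17 and -0.17 in PDZK1 1 to 3. All 40 genes were above that mean in control 3, 38 were in PDZK1 2 and 0 were in PDZK1 3. Over all tested genes the same medians were between 0.00035 and 0.0050. Since the 40 genes came from the same 6 libraries, they are not independent replicates of this pattern.

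**Figure D4:**
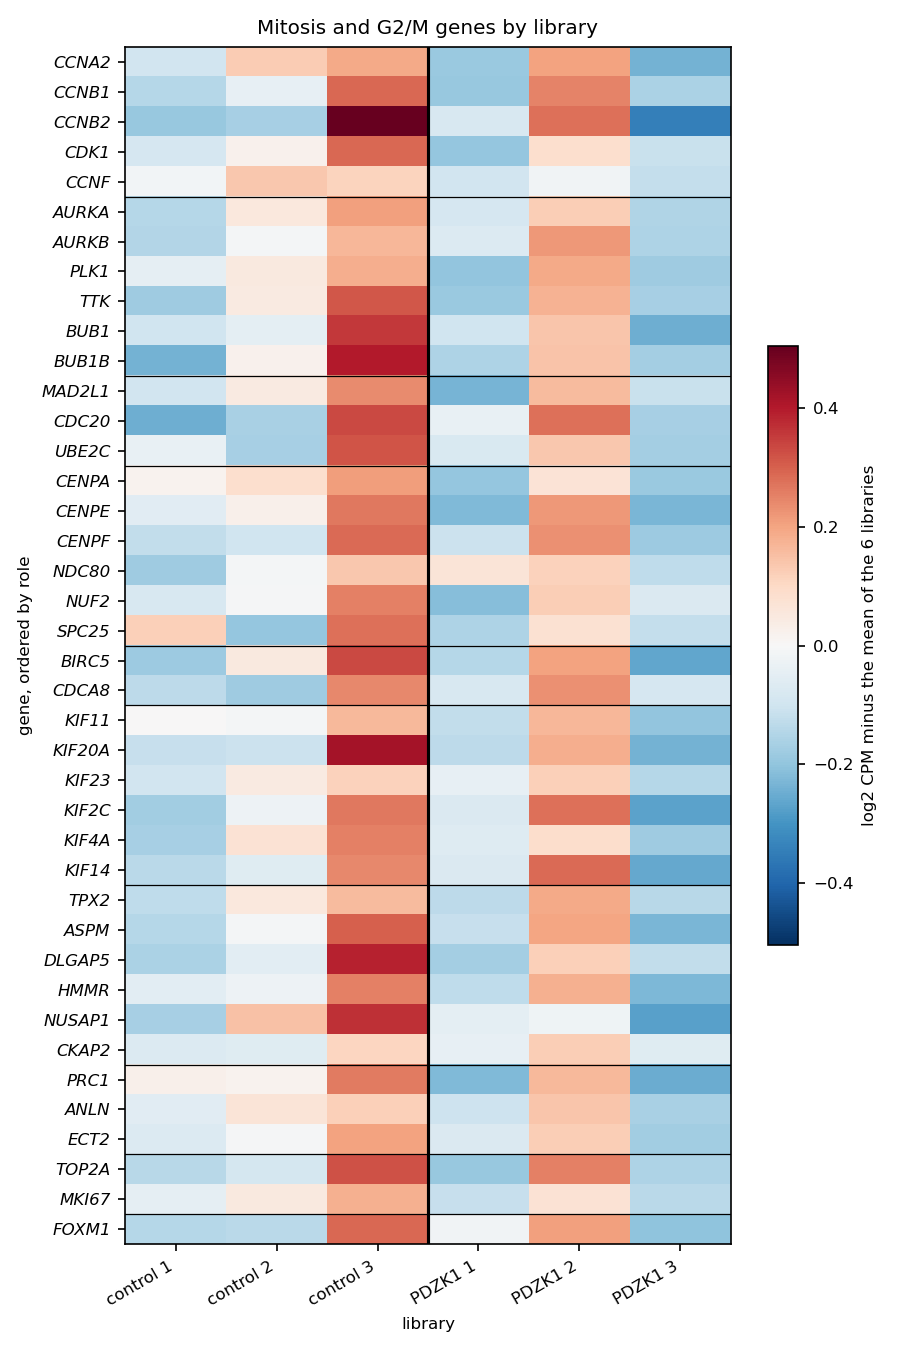
Log2 CPM of each of the 40 genes (rows, ordered by role and separated by lines) in each of the 6 libraries (columns), minus the gene's mean over the libraries. Control 3 is above the mean for all 40 genes and PDZK1 2 for 38, and PDZK1 3 is below it for all 40.

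Between libraries of the same group the members differed by more than between some libraries of different groups. The median member was 0.35 higher (log2) in control 3 than in control 1, with 40 of 40 genes higher, and 0.34 lower in PDZK1 3 than in PDZK1 2. Control 3 and PDZK1 2 differed by -0.081 in the median, and control 1 and PDZK1 1 by -0.0054, with 17 of 40 genes higher in PDZK1 1. Summed over the members, levels were 2230, 2370 and 2841 CPM in control 1 to 3 (2481 ± 320, SD, n = 3) and 2201, 2701 and 2123 CPM in PDZK1 1 to 3 (2342 ± 314, SD, n = 3). The groups overlapped in this sum. The spread within a group (SD over its libraries, pooled over both groups) had a median of 0.20 log2 units over the members and 0.072 over the 10101 tested genes expressed at least as highly as the lowest member. For 35 of the 40 genes (87.5%) the group difference was smaller than this spread, as it was for 54.3% of all tested genes.

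The shared tilt below control was not seen without control 3, the library with the fewest counts. With it left out, the members' median was 0.012, with 24 genes above 0 and 16 below. The median was -0.028 without PDZK1 3 (14 above, 26 below) and -0.056 without PDZK1 1 (11 above, 29 below). It was -0.17 without control 1 and -0.13 without control 2. Without PDZK1 2 the median was -0.21 and all 40 were below 0. Then 10 genes had an unadjusted edgeR p under 0.05 (against 16.1% of all tested genes), namely PRC1, CENPE, CENPA, CCNA2, HMMR, ANLN, PLK1, MKI67, MAD2L1 and KIF11. The smallest adjusted p there was 0.0792 (PRC1, edgeR), so 0 of 40 passed the threshold. Without control 1, 3 genes (NUSAP1, CCNF and MKI67) had an unadjusted edgeR p under 0.05, against 15.4% of all tested genes. What set control 3 and PDZK1 2 apart was not tested, and the labels give no batch for them.

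Genes of the cell cycle outside the list gave 1 call among 184 tested, against 3.83% of all tested genes. The APC/C subunits (17 genes), other kinetochore genes (30), other checkpoint, passenger complex and separase genes (9), G2/M entry genes (16 of 17 tested), MuvB and B-MYB genes (12), other spindle and cytokinesis genes (22), condensin and cohesin (19) and G1 cyclins, CDKs and their inhibitors (18 of 20 tested) had 0 called by edgeR. At an unadjusted p under 0.05 these and the DNA replication genes together had 26 of 184, against 17.5% of all tested genes, of which 5 were higher and 21 lower (against 9.37% lower). The median log2 difference ran from -0.18 for the checkpoint genes to 0.015 for MuvB and B-MYB. In 6 of these lists the library medians were highest in control 3 and PDZK1 2, as for the members, at 0.19 and 0.14 for the other spindle and cytokinesis genes, 0.19 and 0.094 for checkpoint genes, 0.11 and 0.081 for other kinetochore genes, 0.14 and 0.056 for G2/M entry, 0.072 and 0.059 for condensin and cohesin, and 0.035 and 0.059 for APC/C subunits. The medians ran from -0.012 to 0.050 for the MuvB and B-MYB genes and from -0.048 to 0.051 for the G1 genes.

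DNA replication genes, which act in S phase, had a group difference that was larger beside their spread than that of the members. MCM6, a subunit of the replicative helicase, was the called gene, with 55.1, 60.1 and 54.3 CPM in control and 46.8, 46.7 and 47.2 CPM in PDZK1 libraries. It fell by 0.27 ± 0.054 (log2, SE, edgeR adjusted p = 0.0278), and it was 1 of 41 replication genes called lower, against 2.41% of all tested genes. At an unadjusted p under 0.05, 12 of these 41 were lower (against 9.37%), and 15 had all PDZK1 libraries below all control libraries (against 12.3%). The median over replication genes was -0.13, close to the -0.11 of the mitosis and G2/M genes, but the spread within groups was 0.086, against 0.20. The group difference was smaller than the spread in 14 of 41 replication genes (34.1%) and in 35 of 40 members. Replication genes shared part of the members' order within groups. PDZK1 2 was the highest PDZK1 library for 29 of 41, against 36.5% of all tested genes. Control 3 was the highest control library for 18 of 41, against 38%. With single libraries left out, MCM6 passed the threshold only without control 3.

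**Figure D5:**
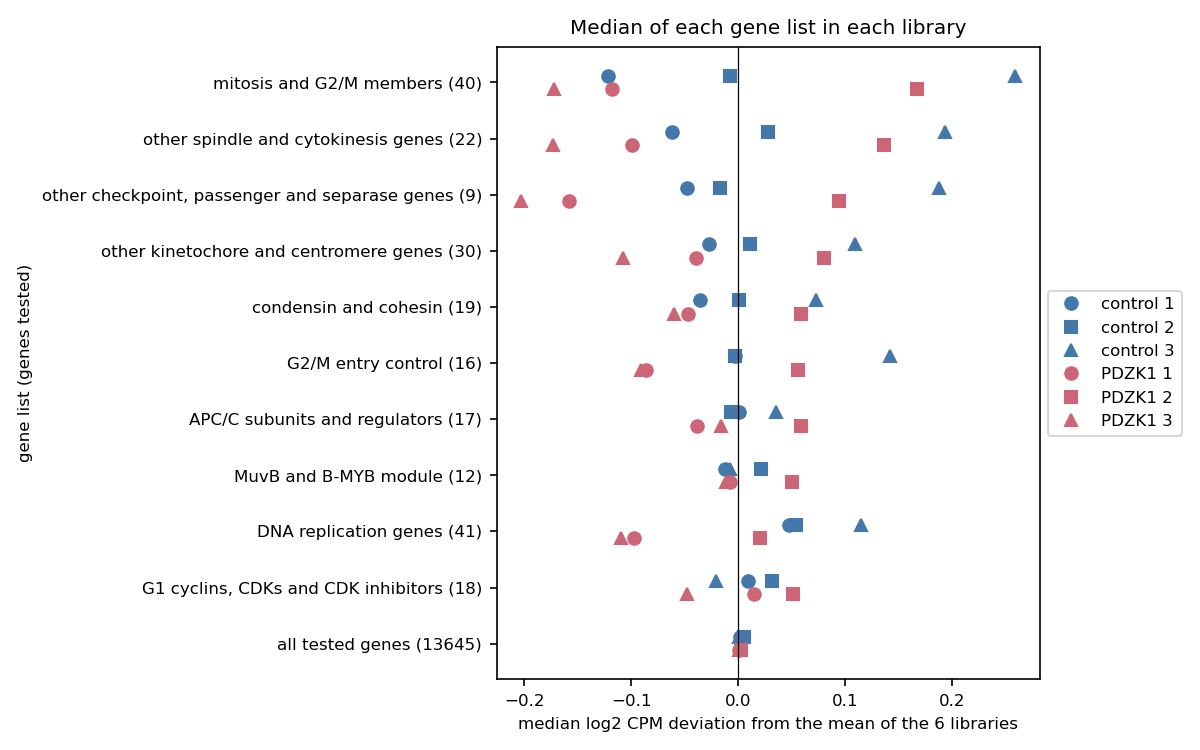
Median log2 CPM deviation from the 6-library mean of each cell cycle gene list in each library (blue, control; red, PDZK1; circles, squares and triangles, replicates 1, 2 and 3), with the number of genes tested. For the members, control 3 (0.26) and PDZK1 2 (0.17) lie apart from the other 4 libraries (-0.17 to -0.0077), and for all tested genes the 6 points coincide near 0.

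The 40 genes lie on 17 chromosomes by GENCODE release 29 (GRCh38). A gene on the opposite strand overlapped 19 of them, and for 8 this was a protein-coding gene: CCNA2, PLK1, NUF2, SPC25, KIF20A, KIF4A, ANLN and FOXM1. The counting is not stated to use strand, so reads of such pairs may not be told apart. An annotated gene on the same strand overlapped 9 members, among them BUB1B (BUB1B-PAK6) and CENPA (SLC35F6). Strand would not separate reads of those pairs. Numbered pseudogenes are annotated for 8 members (UBE2C, AURKA, CCNB2, BUB1, CDC20, DLGAP5, CKAP2 and MKI67), whose counts could be shared with them.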

How the data were processed

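RNA sequencing of 6 ARPE-19 libraries was analysed. The authors trimmed reads with fastp 0.20.1 and aligned them with HISAT2 2.2.1 to GRCh38, per the submitters' processing notes. The counting program and strandedness are not given in the sources used here. The authors deposited whole-number counts per gene, read here as estimated counts because assembled-locus names are among the identifiers, and FPKM, which scale fragments to transcript length and depth. Both tables also hold per-sample values in 3 columns each that match no sample, which were not used here. The 853 loci named as assembled, of 21314 entries, were left out.

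Counts were tested with edgeR 4.0.16 in R 4.3.3 (filterByExpr, 13645 genes, TMM, robust quasi-likelihood test, no covariates, Benjamini-Hochberg adjustment over all tested genes, threshold 0.05). CPM use TMM-scaled totals, and deviations use log2 CPM with a prior count of 2. Errors of log2 fold changes are standard errors and intervals are 95% model intervals. The floor is 3 counts, and floors cover counting error only, since reads lacking molecular identifiers are not single molecules. Genes sharing sequence share reads in such estimates. All 40 members were named. Of other lists the called genes and PDZK1 were named, with markers at 0 counts; any further gene was picked once its values had been seen. The members and lists were chosen with earlier results of these data known. Fits were tested on simulated data. Same-numbered libraries did not deviate together (residual correlations -0.046, -0.056 and -0.14). Alternatives were DESeq2 1.42.0, limma-voom and limma with trend (limma 3.58.1) on log2(FPKM + 1) or (FPKM + 0.1) with a minimum mean FPKM of 0.5 or with no minimum. Others were RLE and total scaling, a minimum of 1 count, a 1.5-fold requirement, a replicate block, each library left out and, added after seeing the data, the assembled loci kept.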

Additional observations from a re-analysis of the deposited data

How the results depend on the processing

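None of the 40 genes passed the threshold under any of the 17 alternatives run, of which the 1.5-fold requirement could only remove calls. Their median stayed below 0 in all but the fit without control replicate 3, and ranged from -0.21 to 0.012 over the fits with a library left out. Under the replicate block, which was checked although the numbers do not pair the libraries, the median was -0.10, 163 genes were called in all and 0 genes of the other cell cycle lists. The count of all called genes (522) was 814 with DESeq2, 184 with log2(FPKM + 1), 185 with the smaller pseudocount, 185 without the filter on FPKM, 171 with the 1.5-fold requirement, and 181 to 875 with a library left out, the highest without control replicate 3. Other cell cycle genes called (1) were 2 with DESeq2 (MCM6 and CDKN1A), 0 in the FPKM fits and with the 1.5-fold requirement, and 0 to 3 with a library left out, 3 without control replicate 3 (MCM6, MYBL2 and CDKN1A). In these fits MCM6 and MYBL2 were lower in PDZK1 cells and CDKN1A was higher. Its log2 fold change was 0.13 with DESeq2 (adjusted p = 0.0241) and 0.15 without control replicate 3 (edgeR adjusted p = 0.0167). The causes were not tested.

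Signs of members near 0 turned. AURKB was 0.00040 with DESeq2, 0.0045 with limma-voom, 0.00036 with RLE scaling, 0.018 with library totals, 0.0014 with a minimum of 1 count, and 0.028, 0.029 and 0.028 in the FPKM fits. FOXM1 was 0.0012 with limma-voom, 0.0065 with library totals, and 0.0084, 0.0088 and 0.0084 in the FPKM fits. With each library left out in turn, log2 fold changes ran for CCNB1 from -0.22 to 0.073, CCNB2 from -0.29 to 0.15, AURKA from -0.17 to 0.0090, AURKB from -0.12 to 0.085, TTK from -0.25 to 0.014, BUB1 from -0.25 to 0.015, BUB1B from -0.28 to 0.050, CDC20 from -0.096 to 0.24, UBE2C from -0.18 to 0.070, CENPF from -0.18 to 0.10, NDC80 from -0.042 to 0.12 and BIRC5 from -0.28 to 0.0094. They ran for CDCA8 from -0.070 to 0.18, KIF20A from -0.27 to 0.061, KIF23 from -0.11 to 0.018, KIF2C from -0.20 to 0.095, KIF14 from -0.18 to 0.10, TPX2 from -0.17 to 0.016, ASPM from -0.23 to 0.038, DLGAP5 from -0.24 to 0.053, CKAP2 from -0.045 to 0.076, ECT2 from -0.17 to 0.0013, TOP2A from -0.22 to 0.098 and FOXM1 from -0.12 to 0.14. MCM6 kept its direction (-0.30 to -0.22 with a library left out) but lost its call in the FPKM fits, under the replicate block, with the fold requirement and in 5 fits with a library left out. With 3 libraries a group, the 95% intervals of 38 members lay within a 1.5-fold change, as did those of 10698 of 13645 tested genes. Smaller changes within an interval are compatible with these data.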

Other observations

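Some cell cycle genes outside the list came close to the threshold without passing it. Those given here were all lower in PDZK1 cells and were chosen after their values were seen. Others went the other way. Of 18 tested G1 cyclins, CDKs and CDK inhibitors, 2 were higher and 0 lower at an unadjusted edgeR p under 0.05. Of all 13645 tested genes, 1110 were higher and 1278 lower at that threshold. The smallest edgeR adjusted p among these G1 genes was 0.103. TRIP13, an ATPase that remodels the checkpoint protein MAD2, had 26.3, 27.6 and 26.7 CPM in control and 21.9, 24.3 and 20.6 CPM in PDZK1 libraries, a log2 difference of -0.27 ± 0.073 (SE, edgeR adjusted p = 0.0804). MYBL2, the B-MYB transcription factor that works with the MuvB core, had 25.5, 23.0 and 20.3 CPM in control and 19.3, 18.9 and 17.0 CPM in PDZK1 libraries, a log2 difference of -0.32 ± 0.093 (edgeR adjusted p = 0.104). In both genes the groups did not overlap. CDC45, a subunit of the replicative helicase, had 13.1, 12.3 and 12.5 CPM in control and 8.99, 11.05 and 10.1 CPM in PDZK1 libraries (edgeR adjusted p = 0.121). The highest control library was control 2 for TRIP13 and control 1 for MYBL2 and CDC45, and it was control 3 for 39 of the 40 mitosis and G2/M genes.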
